A study of Mus musculus with 19 samples.

Results

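Transcripts of 47 genes bearing symbols of spliceosome proteins were compared between single mouse blastocysts of a Padi6 mutant and Control blastocysts. In all, 14173 genes were measured, and Snrpert, among the 47, has no annotated coding sequence. The members were chosen by symbol alone: every measured gene whose name starts with Snrp, Lsm and a digit, Sf3a, Sf3b or Prpf, without Snrpn, names with -ps and names ending in os. They fall into 12 Snrp genes, 13 Lsm genes, 9 Sf3 genes and 13 Prpf genes. The Snrp and Lsm genes together (25) are here called the Sm and LSm class, which holds mostly small proteins, and the Sf3 and Prpf genes (22) the SF3 and PRPF class, which holds mostly large ones. All 47 were above 0 in every embryo. Whether other genes with such names were removed before the values were deposited cannot be seen, since members were drawn from the measured genes only.

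Polyadenylated RNA was sequenced from 9 Padi6-mutant and 10 Control embryos, with 1 library per embryo. The series text names the mutant allele as P620A and places it in the oocyte, so the mutant embryos are those of mutant mothers. Embryo age, mouse strain, the genotype of the fathers, litters and collection days are not given in the sources used here. No agent is named for either group. Embryos were treated as independent, and p-values measure only the spread between these embryos, since shared parents cannot be seen from the labels. A blastocyst is a mixture of trophectoderm, inner cell mass and primitive endoderm, so fewer cells of a type and less RNA per cell cannot be told apart.

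The spliceosome removes introns from pre-mRNA. Its small nuclear ribonucleoproteins (snRNPs) each carry a small RNA wrapped by a ring of Sm proteins, or of LSm proteins in the case of U6, together with proteins particular to each particle. The SF3a and SF3b complexes belong to the U2 snRNP and hold it at the branch site, and the PRPF proteins, named after yeast pre-mRNA processing mutants, include the scaffold of the catalytic centre, parts of the particle that joins U4, U6 and U5, and factors of later steps. Splicing is needed in every cell of the embryo, and the ring proteins are among the smallest proteins of the machinery.

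Values are log2(scaled count + 1), the scale on which the authors deposited them, and a difference of 1 is a doubling on the scaled counts. Each was scaled so that the upper quartile of a library, a scaled count of 2322, is the same in all 19. Total counts in the measured genes, recovered from the spacing of low values, were 12.1 to 30.2 M in 8 Padi6-mutant libraries and 27.9 to 46.1 M in 5 Control libraries (M, mega), and could not be recovered in the other 6. They lie above the depth that the labels state, a gap that was not resolved. Padi6-mutant libraries had 113 to 596 genes at 0 against 30 to 247 in Control libraries, with over 400 in Padi6-mutant 6, 8, 9 and 10, below called the 4 low-detection embryos. The rank correlation of transcript length with a library's deviation from the gene means, across genes, which are not independent replicates, ran from -0.42 to -0.09 in Padi6-mutant libraries and from -0.12 to 0.40 in Control libraries. Markers of the blastocyst were present, with 9 of 10 for the inner cell mass, 9 of 10 for the trophectoderm and 7 of 8 for the primitive endoderm measured. Summed scaled counts of the inner cell mass markers were 65346 to 92737 in Padi6-mutant and 81084 to 149057 in Control libraries (0 higher and 3 lower of 9). For the trophectoderm they were 118538 to 536586 in Padi6-mutant and 241910 to 423095 in Control libraries (1 higher, 0 lower), and for the primitive endoderm 25407 to 34265 in Padi6-mutant and 23434 to 58800 in Control libraries (0 higher, 4 lower). The part of cell makeup in the results was not tested. Values adjusted for detection, without the low-detection embryos and with a trend on transcript length and GC content removed are given with the results. None of 10 cumulus and granulosa cell markers is among the measured genes. Padi6 itself spanned 2.00 to 9.27 in Padi6-mutant and 3.81 to 9.24 in Control embryos, which does not check the labels, since the allele is a change of 1 amino acid.

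Most of the small ring proteins had more transcript in the mutant embryos, while genes of the SF3 and PRPF class passed the test about as often as all measured genes. In the Sm and LSm class 18 of 25 genes rose and 0 fell in Padi6-mutant embryos (limma adjusted p under 0.05), with a median log2 fold change of 1.46. In the SF3 and PRPF class 3 of 22 rose and 3 fell, with a median of -0.23. Across all measured genes 14.6% rose and 12.0% fell (26.6% in either direction), with a median of -0.10. Genes of a class are not replicates of each other. The same 24 members, 21 higher and 3 lower, passed the threshold whichever single embryo was left out. When the 4 low-detection embryos were left out, 21 members rose and 2 fell, where 11.9% and 6.64% of all genes did. In a fit adjusted for how many genes each library detected, 18 rose and 1 fell, where 9.23% and 3.52% of all genes did, and the calls of Lsm14b, Sf3b6, Prpf38a, Sf3a1 and Sf3b3 ended.

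**Figure D1:**
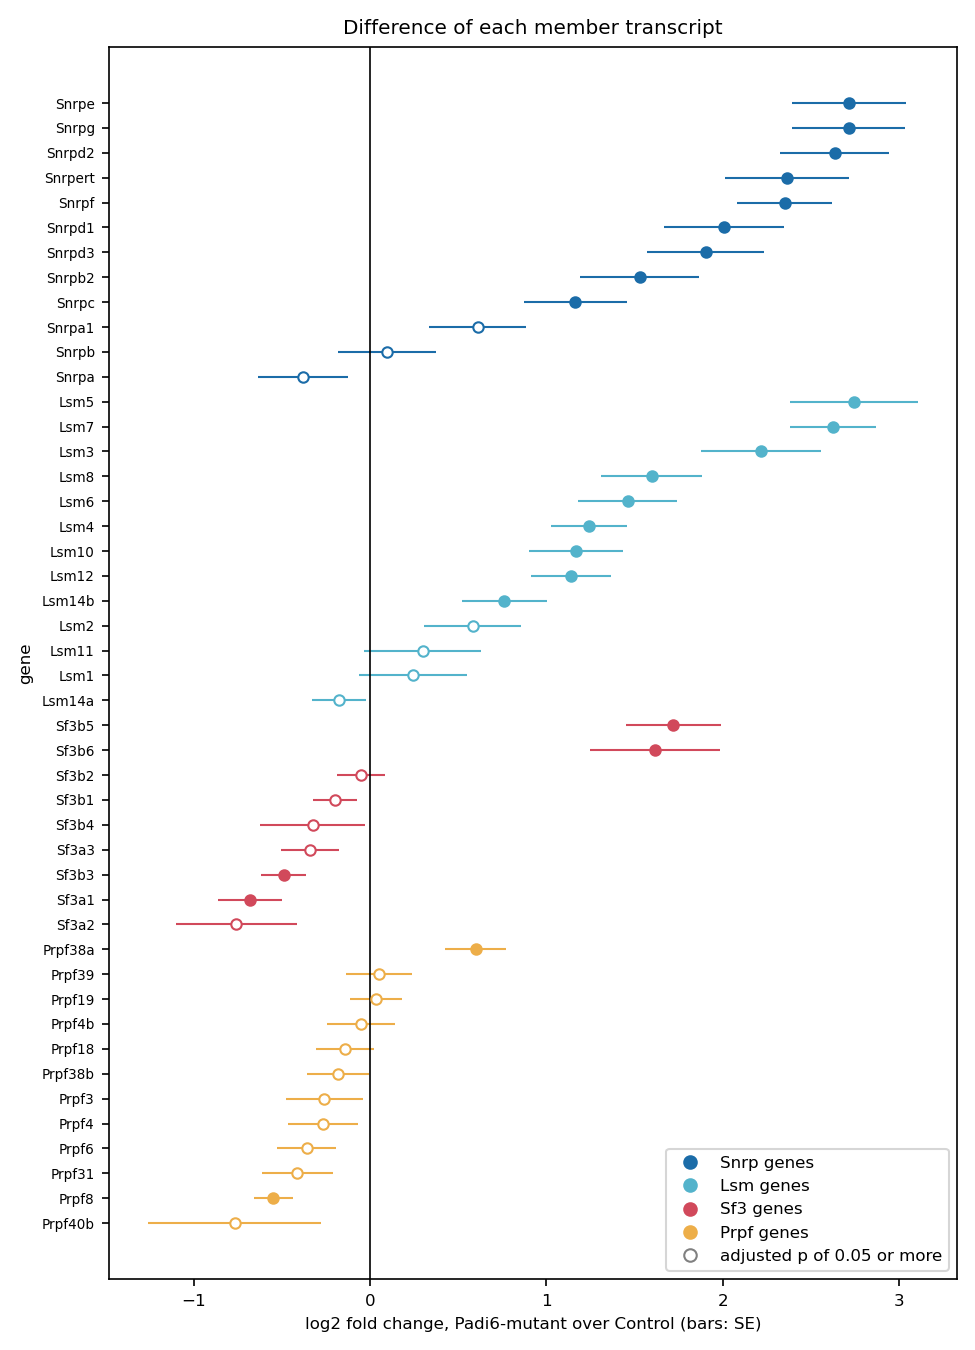
Log2 fold change of 46 of the 47 members (horizontal axis, Padi6-mutant over Control; bars are SE), grouped by family and ordered within it, with filled points for members past the limma threshold. The Sm and LSm genes reach 2.75, whereas the highest of the Prpf genes stands at 0.60 and the Sf3 genes split into a pair above 1.6 and 7 below 0.

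For 6 members the embryos of the 2 groups did not overlap at all. Snrpd2, Snrpe, Snrpf, Lsm4 and Lsm7 were higher in every Padi6-mutant than in every Control embryo, a pattern seen in 2.67% of all genes. Prpf8 was lower in every Padi6-mutant embryo, as were 0.289% of all genes. The promoters of 5 of these 6 genes are printed because they are the members whose groups stood fully apart, so that their upstream sequences can be read beside each other. Each is the stretch of 250 bases before the start that RefSeq annotates on GRCm38.p6, read 5′ to 3′ on the gene's strand. Capitals mark matches, on either strand, to any of 6 short motifs: the ETS core CCGGAAG, the CCAAT box CCAAT, the GC box GGGCGG, the NRF1 motif (GCGCA, any base, then GCGC), the YY1 core AAGATGGC and the TATA box TATAAA. The sequence of Snrpd2 lies at chr7:19149588-19149837 (+ strand), that of Snrpe at chr1:133610281-133610530 (- strand), that of Snrpf at chr10:93589659-93589908 (- strand), that of Lsm7 at chr10:80855210-80855459 (- strand) and that of Prpf8 at chr11:75486527-75486776 (+ strand).
Snrpd2: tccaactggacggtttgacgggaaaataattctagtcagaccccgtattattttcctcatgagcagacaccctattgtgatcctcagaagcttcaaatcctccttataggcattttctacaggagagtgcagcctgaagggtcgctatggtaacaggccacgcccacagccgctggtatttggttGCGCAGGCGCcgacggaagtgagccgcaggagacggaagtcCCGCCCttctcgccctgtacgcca
Snrpe: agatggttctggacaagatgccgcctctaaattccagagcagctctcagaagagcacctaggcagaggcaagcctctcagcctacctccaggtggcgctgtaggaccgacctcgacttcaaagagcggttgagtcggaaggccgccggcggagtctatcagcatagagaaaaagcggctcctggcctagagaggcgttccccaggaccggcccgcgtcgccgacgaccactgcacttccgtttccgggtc
Snrpf: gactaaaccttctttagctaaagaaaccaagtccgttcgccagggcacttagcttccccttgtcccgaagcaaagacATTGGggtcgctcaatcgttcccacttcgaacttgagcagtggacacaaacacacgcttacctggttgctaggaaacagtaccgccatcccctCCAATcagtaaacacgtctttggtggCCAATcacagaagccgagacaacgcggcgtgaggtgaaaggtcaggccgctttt
Lsm7: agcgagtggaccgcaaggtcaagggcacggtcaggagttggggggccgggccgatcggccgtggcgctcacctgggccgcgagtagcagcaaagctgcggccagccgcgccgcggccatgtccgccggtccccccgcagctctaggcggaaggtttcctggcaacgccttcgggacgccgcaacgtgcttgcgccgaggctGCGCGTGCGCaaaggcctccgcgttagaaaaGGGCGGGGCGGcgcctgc
Prpf8: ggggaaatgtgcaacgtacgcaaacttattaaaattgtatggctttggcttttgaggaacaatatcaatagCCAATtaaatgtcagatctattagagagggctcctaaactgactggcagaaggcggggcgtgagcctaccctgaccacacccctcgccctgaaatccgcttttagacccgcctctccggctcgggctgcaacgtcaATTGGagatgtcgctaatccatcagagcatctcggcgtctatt

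The 5 promoters have no motif in common. Snrpd2 and Lsm7 each hold an NRF1 match and a GC box, Snrpf and Prpf8 hold CCAAT boxes, and Snrpe holds none of the 6. Promoters were found for 37 of the 47 members and for 9575 of all measured genes. The NRF1 motif was present in 4 of 19 promoters of the Sm and LSm class (21.1%) and 4 of 18 of the SF3 and PRPF class (22.2%), against 8.60% of all promoters. The ETS core stood in 4 of 19 (21.1%) and in 8 of 18 (44.4%), against 14.9% of all. A CCAAT box was present in 36.8% and 44.4% of the class promoters and in 37.2% of all, and a GC box in 57.9% and 55.6% against 59.3%. These shares describe letters in a window and were not tested. The ETS core stood in 5 of 16 promoters of members that rose and in 7 of 21 promoters of the others, and the NRF1 motif in 4 of 16 and 4 of 21. The YY1 core was in 0 of the 37 member promoters and in 2.19% of all, and the TATA box in 2 of the 37 and in 6.15% of all. None of the 6 motifs contains another.

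The ring that clasps the RNAs of U1, U2, U4 and U5 is built of 7 core Sm proteins, and 6 of their 7 genes rose. Those 6 have coding parts under 500 nt, a length at which 58.7% of all genes rose. Snrpe, the gene of SmE, had a lowest, median and highest value of 13.47, 14.49 and 15.38 in Padi6-mutant and of 10.54, 11.58 and 13.31 in Control embryos (log2 fold change 2.72, SE 0.32, limma adjusted p = 1.80e-06; 6.58-fold). The lowest mutant embryo still stood above the highest Control embryo. Snrpg, which encodes SmG, spanned 12.67, 13.76 and 14.75 in Padi6-mutant against 10.03, 10.81 and 12.71 in Control embryos (log2 fold change 2.71, SE 0.32, limma adjusted p = 1.76e-06), and here the groups met only at their edges. For Snrpf, the gene of SmF, the values were 10.58, 11.60 and 11.85 in Padi6-mutant embryos and 8.33, 8.78 and 10.31 in Control embryos (log2 fold change 2.35, SE 0.27, limma adjusted p = 1.10e-06). SmE, SmF and SmG enter the ring as a preformed trio, and their transcripts rose by 2.35 to 2.72.

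SmD1 and SmD2 enter the ring as a pair, and SmD3 enters with SmB. Snrpd2 lay at 12.78, 13.86 and 14.24 (lowest, median, highest) in Padi6-mutant and at 9.84, 11.10 and 12.74 in Control embryos (log2 fold change 2.64, SE 0.31, limma adjusted p = 1.54e-06). Snrpd1 lay at 12.55, 13.51 and 14.53 in Padi6-mutant and at 10.07, 11.27 and 13.07 in Control embryos (log2 fold change 2.01, SE 0.34, limma adjusted p = 1.26e-04), and its groups overlapped through the highest Control embryos. Snrpd3 reached 12.55, 13.53 and 14.04 in Padi6-mutant embryos, against 10.08, 11.12 and 13.18 in Control embryos (log2 fold change 1.90, SE 0.33, limma adjusted p = 1.74e-04). Every one of the 9 mutant embryos was above the Control median for the D-type genes. Snrpb, which encodes SmB, was the exception of the ring: it spanned 12.58, 13.07 and 14.20 in Padi6-mutant and 11.82, 13.33 and 14.42 in Control embryos, and did not pass (log2 fold change 0.10, SE 0.28, limma adjusted p = 0.826). Only 3 of 9 mutant embryos lay above the Control median of Snrpb, and under quantile normalization its value was -0.03. Its coding part, 693 nt, is the longest of the ring, where the other 6 have 228 to 378 nt.

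The Snrp symbols also cover proteins that belong to 1 particle only. In the U1 snRNP, Snrpc (which helps pair U1 with the 5′ splice site) rose by 1.16 (adjusted p = 0.00494, limma), whereas Snrpa (an RNA-binding protein) stood at -0.38 and did not pass (adjusted p = 0.280, limma). U2 carries a pair of its own: Snrpb2 rose by 1.53 (adjusted p = 0.00175, limma), while its partner Snrpa1 had a value of 0.61 (adjusted p = 0.101, limma). Snrpa1 passed at 0.89 once the 4 low-detection embryos were left out. Snrpert is annotated as a processed pseudogene of the same name root as Snrpe, and its value of 2.37 may hold reads of Snrpe, since the way in which reads with several matches were counted is not given in the sources used here. Without it, 17 of 24 genes of the class rose and their median was 1.35.

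U6 carries a ring of LSm2 to LSm8 in place of the Sm ring, and 6 of these 7 genes rose as well, with a median of 1.60. Their coding parts are 240 to 414 nt, and of all genes under 500 nt 58.7% rose (median 1.14). Lsm7 had the smallest adjusted p of all members, at 11.63, 12.35 and 12.90 (lowest, median, highest) in Padi6-mutant and 9.00, 9.39 and 10.72 in Control embryos (log2 fold change 2.63, SE 0.24, limma adjusted p = 1.18e-07). No Control embryo came up to the lowest mutant one. Lsm5 had the largest difference of all members, with 11.26, 12.40 and 13.50 in Padi6-mutant against 8.37, 9.53 and 11.37 in Control embryos (log2 fold change 2.75, SE 0.37, limma adjusted p = 7.55e-06; 6.70-fold). Lsm3 spanned 12.16, 12.85 and 13.71 in Padi6-mutant embryos and 9.25, 10.47 and 12.41 in Control embryos (log2 fold change 2.22, SE 0.34, limma adjusted p = 4.40e-05). Controls 5 and 9 were the 2 that reached into the mutant range for Lsm3 and Lsm5. Lsm4 differed less, but with little spread among the mutants: 13.01, 13.42 and 13.61 in Padi6-mutant and 11.04, 11.88 and 12.99 in Control embryos (log2 fold change 1.24, SE 0.22, limma adjusted p = 1.89e-04). Lsm8, the subunit that keeps the ring nuclear, rose by 1.60 and Lsm6 by 1.46. Lsm2 was the member of this ring that did not pass (0.58, adjusted p = 0.119, limma).

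The LSm genes outside the U6 ring had values of -0.18 to 1.17. Lsm1 takes the place of Lsm8 in the cytoplasmic ring that acts in mRNA decay, and its value was 0.25 (SE 0.31, adjusted p = 0.585, limma), with 8.46 in Padi6-mutant 10 as the lowest embryo. The U7 snRNP, which processes histone pre-mRNA, uses Lsm10 and Lsm11: Lsm10 rose by 1.17 (adjusted p = 0.00235, limma) and Lsm11 stood at 0.30 (adjusted p = 0.534, limma). Lsm12 rose by 1.14 and Lsm14b by 0.76 (adjusted p = 0.0222, limma). Lsm14b lost its call when the 4 low-detection embryos were left out (0.71, adjusted p = 0.0856, limma). Lsm14a, a component of P-bodies that represses translation, stood at -0.18 (adjusted p = 0.418, limma) and has the longest coding part of the class, 1386 nt.

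**Figure D2:**
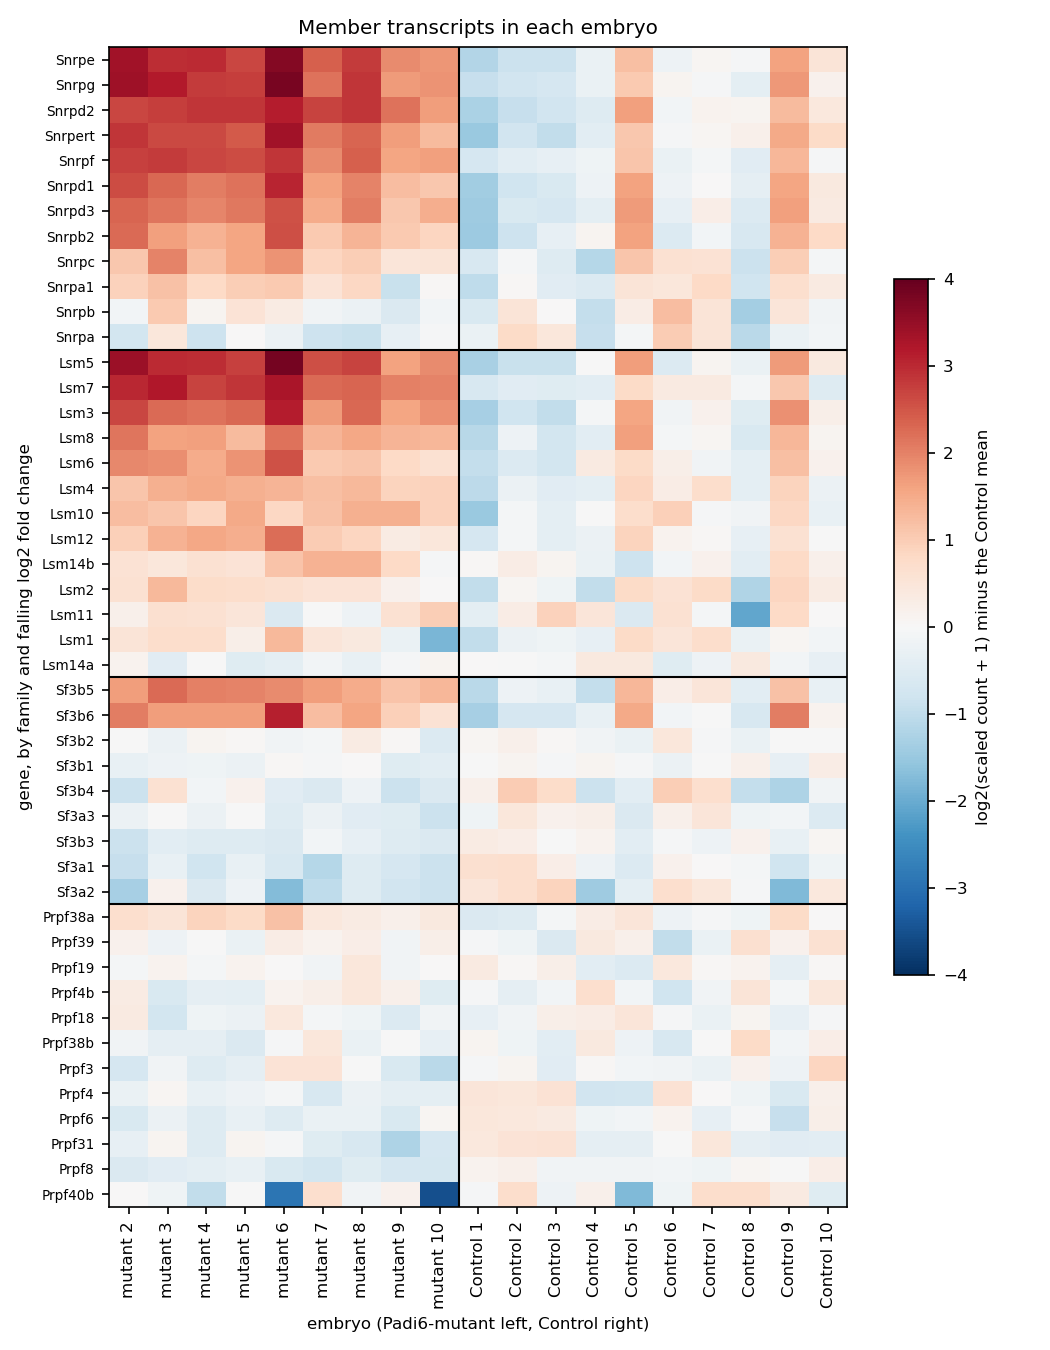
Each cell is 1 of 46 members in 1 embryo, as log2(scaled count + 1) minus the mean of the Control embryos, with Padi6-mutant embryos left of the vertical line and families separated by horizontal lines. Red (higher) fills most of the Snrp and Lsm rows in the 9 mutant embryos, and Control 5 and Control 9 show the same rows in lighter red, while most Sf3 and Prpf rows stay pale in both groups.

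Within SF3, 2 small subunits parted from the rest. Sf3b5 had 12.82, 13.32 and 13.94 (lowest, median, highest) in Padi6-mutant and 10.59, 11.42 and 13.00 in Control embryos (log2 fold change 1.72, SE 0.27, limma adjusted p = 5.78e-05). Sf3b6, the p14 subunit that lies near the branch-site adenosine, had 11.90, 12.97 and 14.42 in Padi6-mutant embryos against 9.98, 11.10 and 13.35 in Control embryos (log2 fold change 1.62, SE 0.37, limma adjusted p = 0.00227). Both rose in 9 of 9 mutant embryos relative to the Control median. Their coding parts, 258 and 375 nt, are the shortest of the SF3 and PRPF class. None of the other 7 SF3 genes rose, and their median was -0.34. The call of Sf3b6 was lost in the fit adjusted for detection (1.34, adjusted p = 0.0534, limma).

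Among the large SF3 subunits, Sf3a1 and Sf3b3 fell. Sf3a1, a scaffold of SF3a, lay at 11.46, 11.91 and 12.30 in Padi6-mutant and 11.80, 12.56 and 13.25 in Control embryos (log2 fold change -0.68, SE 0.18, limma adjusted p = 0.00765). Sf3b3, a large propeller protein of SF3b, lay at 12.29, 12.63 and 13.04 in Padi6-mutant embryos and at 12.72, 13.18 and 13.47 in Control embryos (log2 fold change -0.49, SE 0.13, limma adjusted p = 0.00703). In both genes 0 of 9 mutant embryos reached the Control median, and the groups still overlapped. Sf3b1, which grips the branch-site duplex and is often mutated in human leukaemias, had 14.39, 14.67 and 14.91 in Padi6-mutant against 14.55, 14.84 and 15.18 in Control embryos and did not pass (log2 fold change -0.20, SE 0.12, limma adjusted p = 0.245); under quantile normalization it stood at -0.59 and passed. Sf3a2 (-0.76), Sf3a3 (-0.34), Sf3b4 (-0.32) and Sf3b2 (-0.05) missed the threshold, at adjusted p values of 0.103, 0.127, 0.444 and 0.808 (limma). Sf3b3 lost its call when the 4 low-detection embryos were left out (-0.48, adjusted p = 0.05004, limma).

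Of the 13 Prpf genes, 1 rose and 1 fell. Prpf8 encodes the scaffold around the catalytic RNA centre and has the longest coding part of all members, 7005 nt. It spanned 12.96, 13.11 and 13.42 in Padi6-mutant embryos and 13.52, 13.64 and 13.98 in Control embryos (log2 fold change -0.55, SE 0.11, limma adjusted p = 9.32e-04), and no mutant embryo reached the lowest Control embryo. Prpf38a, a protein needed for activation of the spliceosome, was the 1 that rose, with 12.25, 12.56 and 13.22 in Padi6-mutant and 11.45, 11.97 and 12.80 in Control embryos (log2 fold change 0.60, SE 0.17, limma adjusted p = 0.0138). Prpf6, which bridges U5 and the U4 and U6 particle, lay at 11.43, 11.75 and 12.12 in Padi6-mutant embryos against 11.12, 12.08 and 12.49 in Control embryos (log2 fold change -0.36, SE 0.17, limma adjusted p = 0.113). Prpf31, which binds the U4 RNA and is mutated in human retinitis pigmentosa, had 10.58, 11.35 and 11.94 in Padi6-mutant and 11.36, 11.64 and 12.40 in Control embryos (log2 fold change -0.41, SE 0.20, limma adjusted p = 0.130). Neither passed. The other partners in the U4 and U6 particle, Prpf3 (-0.26) and Prpf4 (-0.27), did not pass either. Together with Prpf8, Prpf6 and Prpf31 they are the 5 Prpf genes of the particle that joins U4, U6 and U5. These 5 had values of -0.55 to -0.26.

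No other Prpf gene passed the threshold. Among them are Prpf19, the ubiquitin ligase of the complex that carries its name (0.04), the step-2 factor Prpf18 (-0.14), the kinase Prpf4b (-0.05), Prpf38b (-0.18), and Prpf39 (0.05) and Prpf40b (-0.77), which are related to U1-associated proteins of yeast. The adjusted p of these 6 ran from 0.258 for Prpf40b to 0.885 for Prpf19 (limma). Prpf40b, singled out after its values were seen, had the largest SE of all members, at 4.91, 8.29 and 9.10 (lowest, median, highest) in Padi6-mutant and 6.67, 8.52 and 9.13 in Control embryos.

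Per embryo, the mean of the Sm and LSm class was 11.41 to 12.54 in Padi6-mutant embryos (mean 11.99 ± 0.38, SD, n = 9) and 9.64 to 11.59 in Control embryos (mean 10.56 ± 0.61, SD, n = 10). The mean of the SF3 and PRPF class was 11.37 to 11.85 in Padi6-mutant (mean 11.72 ± 0.16, SD, n = 9) and 11.65 to 11.95 in Control embryos (mean 11.79 ± 0.10, SD, n = 10). The first class minus the second was -0.09 to 0.76 in Padi6-mutant embryos (mean 0.27 ± 0.29, SD, n = 9) and -2.14 to -0.05 in Control embryos (mean -1.23 ± 0.66, SD, n = 10). The groups met only at the edge, where Control 9 (-0.05) stood above Padi6-mutant 9 (-0.09) and below Padi6-mutant 7 (-0.03). Control 5 (-0.23) came next, and the other 8 Control embryos lay at -1.06 or lower. These are differences of log2 means over genes of unequal length and give no order of levels between the classes. Controls 5 and 9 also had the lowest correlations of deviation with transcript length among Control libraries, -0.12 and -0.11, and Padi6-mutant 9 had the highest among mutant libraries, -0.09. The 4 low-detection embryos held both the highest class difference, 0.76 in Padi6-mutant 6, and the lowest, -0.09 in Padi6-mutant 9.

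**Figure D3:**
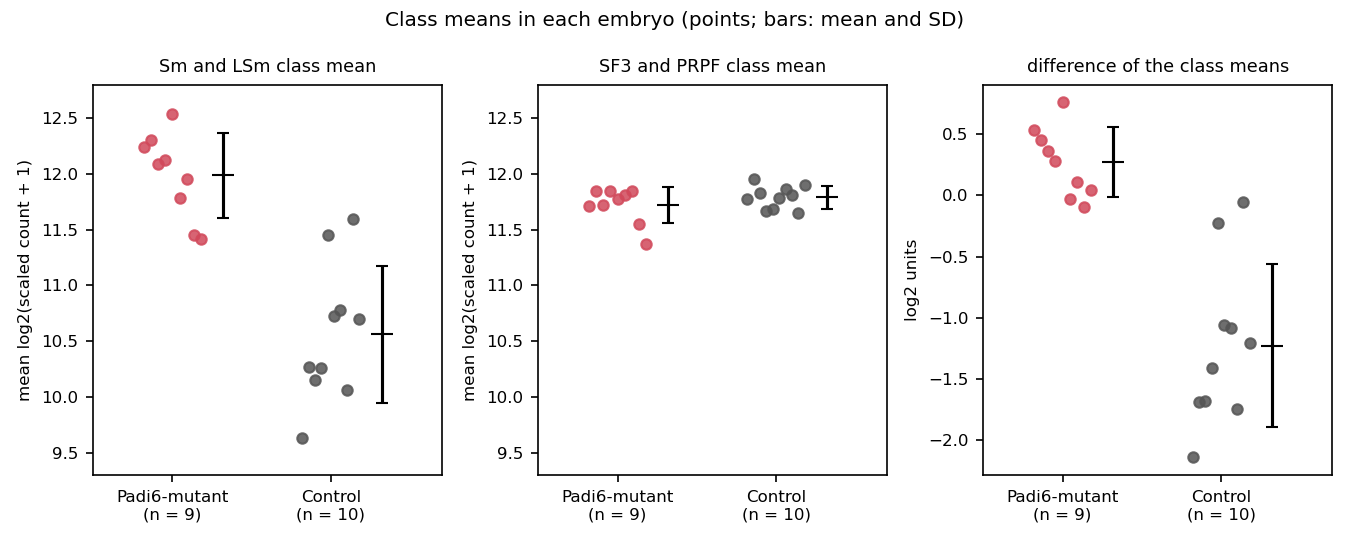
Class means per embryo, as mean log2(scaled count + 1), for the Sm and LSm class (left), the SF3 and PRPF class (middle) and their difference (right); each point is 1 embryo, in order of its number, and the bars are mean and SD. The left panel separates most Padi6-mutant embryos (11.41 to 12.54) from most Control embryos (9.64 to 11.59), while the middle panel shows both groups near 11.8.

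Shorter members differed more. Over the 46 members with a coding sequence, the Spearman correlation of log2 fold change with coding length was -0.84 (Pearson -0.85 on log2 length); with the length of the whole transcript it was -0.65. These are descriptions across genes that share the same libraries, and all 10982 measured genes with a coding sequence gave -0.41. Among the 18 members with a coding part under 500 nt, 16 rose and 0 fell (median 1.81), where 58.7% of all genes of this length rose and 1.04% fell (median 1.14). The 2 of these that did not pass were Lsm1 and Lsm2. Of the 13 members between 500 and 1500 nt, 4 rose and 0 fell (median 0.10), where 13.9% of all such genes rose and 10.0% fell. These 4 were Snrpb2, Lsm12, Lsm14b and Prpf38a. Over 1500 nt, 0 of 15 members rose and 3 fell (median -0.26), where 2.03% and 21.1% of all such genes did (median -0.35). These length limits were chosen after the values were seen. The called genes of each length moved mostly in the same direction as the called members of that length, except between 500 and 1500 nt, where both directions were common. Inside the Sm and LSm class alone the Spearman correlation with coding length was -0.76 and Pearson's -0.75 (24 genes), and inside the SF3 and PRPF class they were -0.35 and -0.76 (22 genes).

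**Figure D4:**
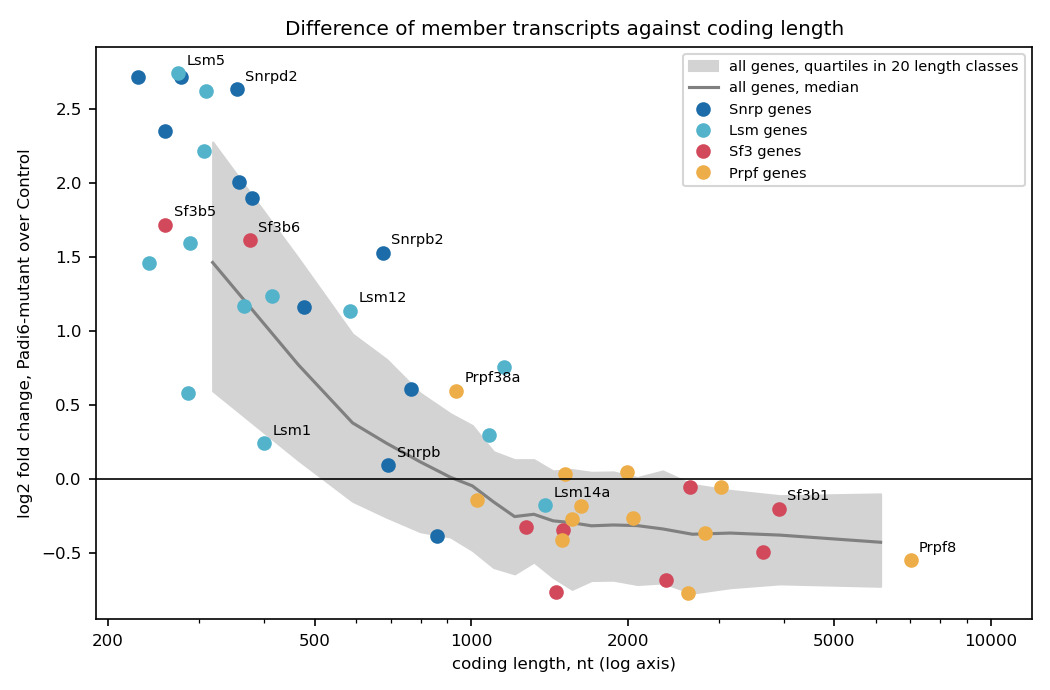
Log2 fold change (vertical axis, Padi6-mutant over Control) against coding length in nt (log axis) for 45 of the 46 members with a coding sequence, coloured by family; the grey line and band are the median and quartiles of all coding genes in 20 length classes. Most members follow the slope of the band and several of the shortest lie above it, with Sf3b5 and Sf3b6 among the small ring proteins and Lsm14a among the large proteins.

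A fitted trend of each library on transcript length and GC content was then taken out. After this, 15 members rose and 2 fell, where 10.6% and 10.2% of all genes did. A relation to coding length remained: over 46 members the Spearman correlation was -0.59 (Pearson -0.62 on log2 length). Of all 964 genes with a coding part under 500 nt, 402 still rose and 75 fell (median 0.50). Among the 18 members of that length 12 rose and 0 fell (median 0.92). Of the 21 members that had risen, 15 still rose. The median of the Sm and LSm class went down to 0.70, with 13 of 25 higher and 1 lower, and that of the SF3 and PRPF class was -0.08, with 2 of 22 higher and 1 lower. All 6 core Sm genes that had risen still did, at 2.51 for Snrpd2, 2.02 for Snrpd3, 1.94 for Snrpg, 1.20 for Snrpf, 1.02 for Snrpe and 0.87 for Snrpd1. In the U6 ring Lsm7 (1.17), Lsm5 (1.00), Lsm3 (0.76) and Lsm4 (0.70) still rose, while Lsm8 (0.38, adjusted p = 0.0603, limma) and Lsm6 (-0.16, adjusted p = 0.548, limma) did not pass. Snrpc (0.21), Snrpert (0.46), Lsm10 (0.25) and Prpf38a (0.32) lost their calls too, whereas Snrpb2 (1.41), Lsm12 (1.15), Lsm14b (1.03), Sf3b5 (1.80) and Sf3b6 (0.97) kept them. Of the 3 that had fallen, Sf3b3 still did (-0.30, adjusted p = 0.0453, limma), while Prpf8 (-0.24, adjusted p = 0.129, limma) and Sf3a1 (-0.44, adjusted p = 0.0755, limma) did not. Snrpa, which had not passed, was lower after the removal (-0.53, adjusted p = 0.0225, limma) and also with library quality weights (-0.65, adjusted p = 0.0365, limma).

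The removal rests on annotated transcript lengths, and 4 members with a coding part under 500 nt have a principal transcript of 1400 nt or more. These are Snrpd2 (1420 nt), Snrpd3 (3036 nt), Sf3b5 (3841 nt) and Lsm1 (2663 nt). Their median was 1.81 before and 1.91 after the removal, whereas that of all 18 members under 500 nt went down to 0.92. Whether the long annotated ends are the ones used in these embryos was not tested. When only genes having an APPRIS principal transcript set the trend, a choice made after seeing the data, 14 members rose and 4 fell, where 9.20% and 11.9% of all genes did, and 13 of the 21 members that had risen still did. Lsm5 then stood at 0.23 (adjusted p = 0.299, limma) and Lsm3 at 0.30 (adjusted p = 0.0910, limma), and both lost their calls, as did Lsm8, Lsm10, Snrpc and Prpf38a. Lsm6 (-0.75) and Snrpert (-1.01) passed as lower. Of all 964 genes with a coding part under 500 nt, 334 rose and 115 fell in this form, beside 10 and 2 of the 18 members. None of the 3 members that had fallen still passed. Snrpe was at 0.35, Lsm7 at 0.50, Snrpd2 at 2.52 and Sf3b5 at 1.80, and these 4 kept their calls.

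**Figure D5:**
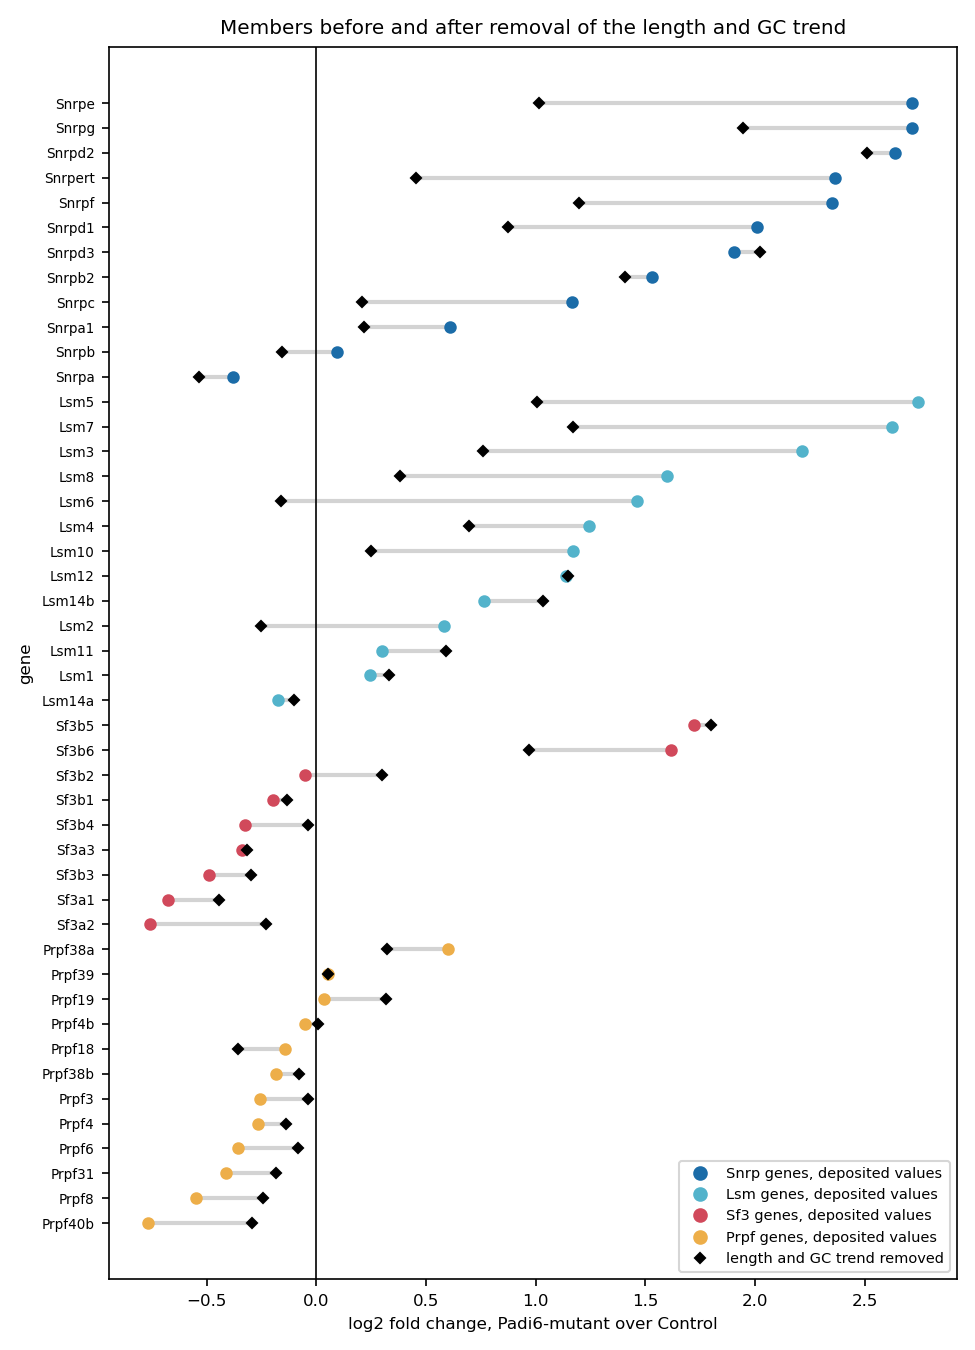
Log2 fold change of 46 of the 47 members (horizontal axis, Padi6-mutant over Control) from the deposited values (coloured points, by family) and after the length and GC trend was removed (black diamonds). Snrpe stands at 2.72 with the deposited values and at 1.02 after the removal, Snrpd2 at 2.64 and 2.51, and Sf3b5 at 1.72 and 1.80.

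Other spliceosome genes went in both directions, and their counts stand beside the 14.6% of all genes that rose and the 12.0% that fell. Counts with the length and GC trend removed stand beside 10.6% higher and 10.2% lower of all genes. A further list held 34 proteins of the snRNPs and of splice-site recognition. Some of them belong to the minor spliceosome, which removes a rare class of introns. Of the 34, 8 rose and 6 fell (23.5% and 17.6%, median 0.13), and 7 rose and 5 fell with the length and GC trend removed. Snrnp27 (tri-snRNP, coding part 465 nt) rose by 2.18 and Txnl4a, the small U5 protein known as Dim1 in fission yeast (426 nt), by 1.72. Snrnp25, a protein of the minor spliceosome (369 nt), rose by 1.37 and U2af1, which reads the 3′ splice site (717 nt), by 0.90. With the trend removed Snrnp25 lost its call (0.54, adjusted p = 0.0534, limma), and Snrnp27 (1.10) and U2af1 (0.39) kept theirs at lower values. Of 31 genes of the Prpf19 complex or of factors acting before, during or after catalysis, 8 rose and 3 fell (25.8% and 9.68%, median -0.12). With the trend removed 7 of the 31 rose and 1 fell. Bud31 (1.51, 432 nt), Mfap1a (0.82) and Bcas2 (0.78) rose, and Dhx8, the helicase that releases spliced mRNA (3732 nt), fell by 0.64. Bud31 lost its call with the trend removed (0.32, adjusted p = 0.103, limma), where Bcas2 (0.48) and Dhx8 (-0.33) kept theirs at lower size, and Bcas2 lost its call in the fit adjusted for detection (0.71, adjusted p = 0.0739, limma).

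The exon junction complex marks spliced mRNA, and 4 of its 9 genes rose while 1, Casc3 (-0.54), fell (44.4% and 11.1%). With the trend removed the same 4 rose, but Casc3 did not pass (-0.21, adjusted p = 0.423, limma). Eif4a3 was the gene then called lower (-0.40, adjusted p = 0.0330, limma). Casc3 and Eif4a3 are named after their values were seen. Magohb rose by 2.38, Magoh by 2.15 and their partner Rbm8a by 1.70, all with coding parts of 438 to 522 nt, and Upf3b, a factor of nonsense-mediated decay, rose by 0.96. With the trend removed Magohb was at 1.07 and Magoh at 0.74, and in the fit adjusted for detection Upf3b lost its call (0.78, adjusted p = 0.128, limma). Of 18 measured genes that build and import snRNPs, 7 rose and 1 fell (38.9% and 5.56%, median 0.01), and 4 rose and 1 fell with the trend removed. Larp7, which binds 7SK RNA (1.14), Snupn, the import adaptor of snRNPs (0.98), and Gemin6 of the SMN complex (0.77) rose, and Gemin5, the large subunit that recognizes snRNA (4506 nt), fell by 1.10. Gemin6 lost its call with the trend removed (0.091, adjusted p = 0.721, limma) and in the fit adjusted for detection (0.64, adjusted p = 0.158, limma), and Gemin5 stood at -0.73 with the trend removed. Among splicing regulators, of 20 measured SR proteins and kinases 0 rose and 4 fell (20.0%), namely Srsf6 (-0.75), Srrm2 (-0.57), Tra2a (-0.39) and Srsf4 (-0.90). Srsf6, Tra2a and Srsf4 lost their calls when the 4 low-detection embryos were left out (-0.54, -0.31 and -0.81), and none of the 4 passed in the fit adjusted for detection. With the trend removed 2 genes of this list rose and 3 fell, and Srrm2 (-0.20, adjusted p = 0.228, limma) and Srsf4 (-0.53, adjusted p = 0.123, limma) were not among them. Of 13 partners of LSm proteins in decapping and in the U7 snRNP, 0 rose and 3 fell (23.1%), Edc3 (-0.83), Edc4 (-0.72) and Patl1 (-0.60). With the trend removed these 3 did not pass: Edc3 stood at -0.51, Edc4 at -0.29 and Patl1 at -0.46 (adjusted p = 0.102, 0.231 and 0.113, limma). The calls of Edc4 and Edc3 ended without those embryos (-0.62 and -0.71), and that of Patl1 ended in most of the fits that left out 1 embryo.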

How the data were processed

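Polyadenylated RNA of single blastocysts was captured on oligo-dT beads, reverse transcribed with template switching, amplified by PCR and sequenced, per the labels' protocols. Per the submitters' processing notes, Trim Galore 0.4.4 and HISAT2 2.1.0 were used with GRCm39. The counting tool and annotation are not given in the sources used here. The authors deposited log2 values, log2(scaled count + 1), scaled to a common upper quartile. Those values were tested as deposited, over all 14173 genes, with limma 3.58.1 in R 4.3.3 (trended empirical Bayes, two-sided, Benjamini-Hochberg adjustment, threshold 0.05), 9 Padi6-mutant against 10 Control embryos. Every fold change is on this scale, which understates the change of low genes. Lengths and GC content came from GENCODE M21 (GRCm38), matched by symbol for 13357 genes (94.2%), and promoters from the RefSeq table on GRCm38.p6. The length and GC trend was a lowess curve (span 0.3) per library. Other scalings, a pseudocount of 16, a level filter, library weights, a replicate block and the removal of each embryo were also run. Genes given in full are, by rule, the 4 of lowest adjusted p and the 1 of highest mean in each family, the 7 core Sm genes, Prpf8, Sf3b1, Sf3b5 and Sf3b6; up to 4 of lowest adjusted p are named per list. 1 member is in the counts and is not reported singly here. The members and lists were chosen with earlier results of these data known. The script was tested on simulated data.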

Additional observations from a re-analysis of the deposited data

Results flagged for a closer look

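Among the 94 sets of member values tested (47 genes in each group), 5 had 1 embryo far from its group by Dixon's test, where chance gives about 1 in 20. Lsm1 was lowest in Padi6-mutant 10, at 8.46. Prpf19 was highest in Padi6-mutant 8, at 12.2. Lsm11 was lowest in Control 8, at 6.43. Prpf3 was highest in Control 10, at 11.4. Prpf40b was lowest in Control 5, at 6.67.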

How the results depend on the processing

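All 24 member calls were kept whichever embryo was left out. Over those fits the class difference was 1.56 to 1.85, and SF3 and PRPF genes called lower numbered 3 to 5, with 5 without Control 9 (Prpf6 and Sf3a2 added) and 3 in the main comparison. Across the other settings 11 of the 24 calls were kept in all. Without the length and GC trend the class difference was 0.78 and the Sm and LSm median 0.70 (main values 1.69 and 1.46), with 1 Sm and LSm gene and 1 SF3 and PRPF gene lower. With that trend set by principal transcripts alone, which was added once the values were known, the difference was 0.41, the medians 0.35 and -0.058, and 11 Sm and LSm genes were higher and 4 lower, with 0 SF3 and PRPF genes lower. Adjusted for detection, 1 SF3 and PRPF gene was higher and 1 lower. With library quality weights 7 SF3 and PRPF genes and 1 Sm and LSm gene were lower. In that setting 19% of all genes were lower, a larger share than in the main comparison, so the rise in lower calls was not particular to the members. The cause was not tested.

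Some members changed sign. Under the length and GC trend, and its principal-transcript form, these were Lsm2 (-0.25 and -0.45), Lsm6 (-0.16 and -0.75), Snrpb (-0.16 and -0.20) and Sf3b2 (0.30 and 0.35). In the first form alone Prpf4b (0.0082) did, and in the second alone Prpf3 (0.0052), Prpf39 (-0.060), Sf3b4 (0.015), Snrpc (-0.059) and Snrpert (-1.01). Adjusted for detection they were Prpf39 (-0.16), Prpf40b (0.16), Sf3b2 (0.038) and Sf3b4 (0.12). Prpf19 was at -0.0030 under quantile normalization, -0.0063 without the 4 low-detection embryos and -0.048 with weights, Snrpb at -0.031 under quantile normalization and Prpf39 at -0.032 without those 4 embryos. Leaving out 1 embryo gave -0.024 to 0.082 for Prpf19, -0.057 to 0.12 for Prpf39, -0.14 to 0.022 for Prpf4b, -0.10 to 0.012 for Sf3b2 and -0.054 to 0.23 for Snrpb.

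Among samples with the same number, 1 of 9 pairs correlated over 0.1 (-0.07 to 0.15), and 1 of 9 embryos correlated best with its own number. These correlations cannot show whether same-numbered embryos shared a litter or a collection day. With the replicate block 19 members rose and 2 fell, where 10.9% and 6.96% of all genes did, and the class difference was 1.56. Litter, day and depth in 6 libraries are unknown, and annotated lengths may not be those used in these embryos.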
